A study of Mus musculus with 8 samples.

Results

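Transcripts of the megakaryocyte and its platelets were followed in the fetal liver of mouse embryos that lack the erythroid Krüppel-like factor EKLF, encoded by Klf1. The members were given as a list of names: Itga2b, Itgb3, Gp1ba, Gp1bb, Gp9, Gp5, Pf4, Ppbp and Vwf. All probe sets of the array with 1 of these names as their only gene symbol were taken, which gave 10 of the 45101 probe sets and covered 8 of the 9 genes. Gp1ba has no probe set under its symbol in the platform table used here and was not analysed. Itgb3 and Gp1bb have 2 probe sets each, and the remaining genes have 1. A further probe set carries the symbols of both Septin5 and Gp1bb, which cannot be told apart on it, and it was left out. The WT group held 4 embryos at E14.5 and the KO group 4 Eklf-/- embryos of the same age, with 1 array per embryo. Per the study's methods, the knockout line was of the B6 strain and was made with a BAC construct holding an engineered Eklf locus and with E2A-Cre mice. Total RNA was taken from whole fetal livers without culture, so each value averages all the cell types of the organ. The WT arrays carry replicate numbers 1 to 4 and the KO arrays 2 to 5.

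Megakaryocytes arise with red cells from a shared bipotential progenitor, and EKLF is known as a factor that favours the red cell side of that choice. The fetal liver is the main site of definitive blood formation before birth, so both lineages mature there side by side. A megakaryocyte builds platelets by loading them with adhesion receptors for fibrinogen, collagen and von Willebrand factor and with granules full of chemokines and clotting proteins. Itga2b is a marker of early commitment that is also found on some stem and progenitor cells, whereas Gp1bb, Gp5 and Gp9 mark later maturation.

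Klf1 itself read 16860, 14993, 16151 and 15328 across the 4 WT arrays and 1799, 1513, 1606 and 1543 across the 4 KO arrays, as MAS5.0 signal, the summary intensity of a probe set on a linear scale. All arrays are given in the order of their replicate numbers throughout. Klf1 was 9.81-fold lower in KO (limma, adjusted p = 5.9e-07, difference of -3.29 on the log2 scale with SE 0.099), and no KO array reached a WT array. All differences are KO minus WT. None of the sources used here says whether its probe set lies in the deleted part of the gene. MAS5.0 gives every array the same trimmed mean of about 500.003, yet the median probe set read from 79.5 to 84.1 on WT arrays and from 96.7 to 114.0 on KO arrays. Hybridisation controls, which are bacterial and phage transcripts added at the hybridisation step, differed by -0.75 on the log2 scale (p = 0.029 in a two-sided exact permutation test, the lowest that 4 against 4 arrays can reach). The 3′ minus 5′ log2 signal of Actb, a measure of RNA quality, ranged from 0.76 to 0.93 among WT arrays and from 0.49 to 0.61 among KO arrays, and that of Tfrc from 1.67 to 1.89 and from 1.92 to 2.72. The groups did not overlap for either gene (p = 0.029 for each, exact permutation test), and Tfrc itself read 3.33-fold lower in KO. For Gapdh the difference was -0.034 (p = 0.40, exact permutation test), so the 3 genes did not move one way. The part of these array differences in the results was not tested. All WT arrays share 1 label code and all KO arrays another. What the codes stand for is not stated in the labels, and the codes and the genotype cannot be told apart.

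The sequence just upstream of each start site is shown for 4 members that span the range of responses: Itga2b, with one of the largest differences, Gp5, with an intermediate one, and the chemokine genes Pf4 and Ppbp, neither of which was called. The sequences are from RefSeq on GRCm38.p6, 5′ to 3′ in the direction of the gene, and end at the base before the annotated start. Capitals mark letters of the kind read by GATA factors (an A or T, then GATA, then an A or G) and by ETS factors (an A or C, then GGAAG), the factor families best known at megakaryocyte genes, on either strand. The stretches lie at chr11:102469884-102470033 (minus strand) for Itga2b, chr16:30310782-30310931 (minus strand) for Gp5, chr5:90772285-90772434 (plus strand) for Pf4 and chr5:90768368-90768517 (plus strand) for Ppbp.
Itga2b: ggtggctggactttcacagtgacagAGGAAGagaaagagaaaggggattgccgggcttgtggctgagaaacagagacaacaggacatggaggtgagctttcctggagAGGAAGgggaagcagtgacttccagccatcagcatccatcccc
Gp5: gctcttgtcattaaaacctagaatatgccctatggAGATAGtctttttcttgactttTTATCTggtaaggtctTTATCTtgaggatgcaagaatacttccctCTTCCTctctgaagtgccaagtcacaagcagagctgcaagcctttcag
Pf4: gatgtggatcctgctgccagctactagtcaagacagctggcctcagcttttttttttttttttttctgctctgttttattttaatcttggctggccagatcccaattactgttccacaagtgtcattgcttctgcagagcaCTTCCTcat
Ppbp: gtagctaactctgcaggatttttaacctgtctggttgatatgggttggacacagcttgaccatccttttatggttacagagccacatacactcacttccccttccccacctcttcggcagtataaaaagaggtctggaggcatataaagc

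Of the 9 genes, 7 had a promoter in the table used, all but Itgb3 and Vwf. Within 150 bases of the start, ETS letters stood in 6 of the 7 and in 28.0% of 32851 mouse promoters, and GATA letters stood in 3 of the 7 and in 16% of all. Itga2b held the ETS letters at 43 and 125 bases upstream, and Gp5 held them at 48 bases with GATA letters at 77, 93 and 115 bases. Pf4 held them at 9 bases, and Ppbp held neither kind in this stretch. The box CCNCNCCC, the letters named for EKLF, was found within the 150 bases of 2 of the 7 (Gp1bb and Gp9) and of 38.1% of all promoters. The shorter CACCC, which can overlap that box, was found in the same 2 and in 37.4% of all. Within 250 bases the box stood in 3 of the 7, now with Itga2b at 239 bases, and in 45.9% of all. CACCC then stood in 3 of the 7, now with Gp1ba at 168 bases, and in 52.0% of all. A match of letters is a description and not a binding site, and the absence of a match says only that the letters are not in the stretch searched.

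Most of the platelet receptor transcripts were higher in KO. All 10 probe sets exceeded the minimum for testing, a mean signal above 100 in WT or in KO on the log2 scale. Of them 7 were called higher in KO and 0 lower at an adjusted p under 0.05 (limma, Benjamini-Hochberg over 23379 probe sets), where 34.4% of all tested probe sets were called higher and 17.7% lower. At an unadjusted p under 0.05 the count lower was also 0. In 7 of the 10 every KO array exceeded all WT arrays, which was so for 32.4% of all tested probe sets. By gene, 6 of the 8 had a probe set called higher, and Pf4 and Ppbp had none. In RNA of a whole organ, a change in the number of cells of a type cannot be told apart from a change in the RNA per cell.

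**Figure D1:**
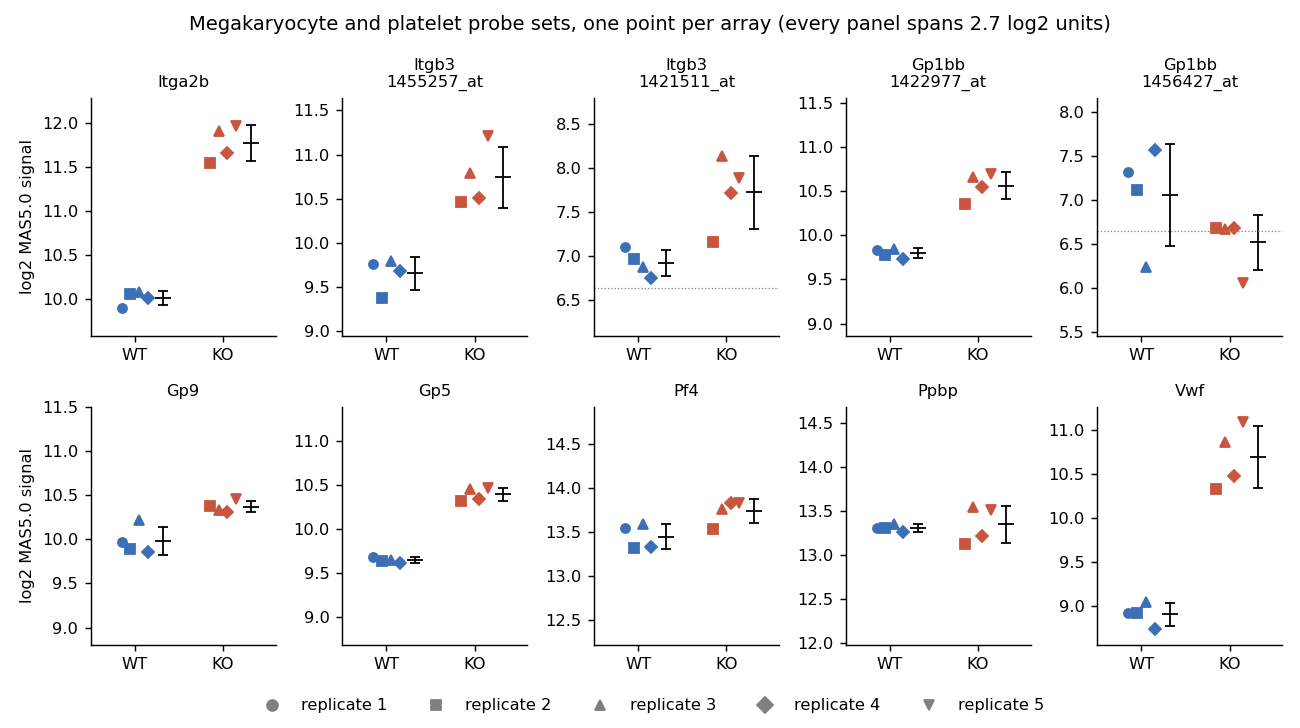
Log2 MAS5.0 signal of the 10 probe sets in the 4 WT (blue) and 4 KO (red) arrays, 1 point per array with the marker giving the replicate number, and beside them the mean with its SD as a black bar; the dotted line, where in range, is a signal of 100. The groups stand apart for Itga2b and Vwf by more than 1 log2 unit, lie close together for Gp9, and overlap for Pf4, Ppbp and the dim Gp1bb probe set.

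Vwf and Itga2b had the largest differences among the members. Itga2b encodes CD41, the alpha chain of the platelet fibrinogen receptor. Its signal was 956, 1064, 1078 and 1029.6 in WT and 2974, 3851, 3239 and 3989 in KO. The highest WT array was far below the lowest KO array, and the WT arrays lay closer together than the KO arrays. The KO mean was 3513 ± 485 (SD, n = 4) against 1032 ± 54.6 (SD, n = 4) in WT. On the log2 scale it rose by 1.76 (SE 0.12, adjusted p = 1.4e-05 from limma), a 3.38-fold difference with a 95% interval of 2.79 to 4.10.

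Vwf encodes von Willebrand factor, the adhesive protein stored in platelet alpha granules and also made by endothelium. Its signal was 483, 483, 529 and 425 in WT and 1278, 1862, 1421 and 2178 in KO. The groups did not overlap, and KO replicates 3 and 5 stood above KO replicates 2 and 4. It was 3.44-fold higher in KO (95% interval 2.61 to 4.54, log2 difference 1.78, SE 0.18, adjusted p = 8.3e-05 from limma). Most of the listed markers of endothelium moved with it. Of the 15 listed endothelial genes, all tested, 12 were called higher and 0 lower, where 25.6% of the 11292 genes tested by their brightest probe set were called higher and 21.0% lower. Their summed signal ranged over 7447 to 8032 among WT arrays and 10106 to 12397 among KO arrays, and none of them fell below the minimum for testing. Cdh5, Erg and Lyve1 were not called (0.30, 0.25 and -0.11 on the log2 scale). The count of 12 was 6 after quantile normalization, where 16.6% of all genes were called higher, and 7 with the 75th percentile, where 13% were. It was 9 to 11 when single arrays were left out and 8 without the filter, settings for which no share of all genes was taken. Pecam1, an endothelial adhesion molecule that platelets also carry, was 3.32-fold higher, and Flt1, a receptor of vascular growth factors, was 3.22-fold higher. The part of endothelial cells in the Vwf difference was not tested.

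Itgb3 encodes CD61, the beta chain that pairs with the Itga2b product. Its brighter probe set (1455257_at) read 866, 664, 884 and 820.4 in WT and 1412, 1767, 1456 and 2370.4 in KO. All KO arrays exceeded all WT arrays, with KO replicate 5 well above the others. It rose by 1.09 on the log2 scale (SE 0.18, adjusted p = 0.0013 from limma), or 2.13-fold. The other probe set (1421511_at) was dim, with 138, 125, 118 and 108 in WT and 144, 282, 210.4 and 236 in KO. KO replicate 2 lay only just above the highest WT array. This probe set rose by 0.80 (SE 0.20, adjusted p = 0.0091 from limma), and lost its call under 4 of 25 alternatives, among them quantile normalization (0.37, adjusted p = 0.13). The 2 probe sets of Itgb3 thus shared a direction, and their levels are not comparable with each other.

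The glycoprotein receptor for von Willebrand factor, the GPIb-IX-V complex, is built from the products of Gp1ba, Gp1bb, Gp9 and Gp5. Gp1bb encodes the beta chain of GPIb, which is linked to the alpha chain that binds the ligand. Its bright probe set (1422977_at) read 915, 875, 922 and 849 in WT and 1309.8, 1622, 1494 and 1655 in KO. The groups did not overlap, and the KO arrays were spread more widely. It rose by 0.77 (SE 0.11, adjusted p = 0.00049 from limma), or 1.70-fold.

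The dim probe set of Gp1bb (1456427_at) did not move with the bright one. It read 159, 138, 75.5 and 189 in WT and 103, 102, 102 and 66.4 in KO. The groups overlapped, and only 6 of the 8 arrays exceeded a signal of 100. Its difference of -0.54 on the log2 scale (SE 0.28, adjusted p = 0.14 from limma) was not called, and it became 0.21 when the arrays were scaled to the hybridisation controls. Without WT replicate 3, the lowest WT array, it was called lower (-0.81, adjusted p = 0.012). The probe set shared with Septin5 read 93.3, 112, 160.4 and 110.0 in WT and 138, 106, 116 and 235 in KO, with overlapping groups.

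Gp5, which encodes the part of the complex that thrombin cleaves, read 822, 798, 804 and 782 in WT and 1278, 1398, 1295 and 1409.7 in KO. Both groups were tight and lay well apart. It rose by 0.75 (SE 0.088, adjusted p = 0.00022 from limma), or 1.68-fold. Gp9 encodes GPIX, needed to bring the complex to the cell surface. It read 1002, 947, 1189.9 and 927 in WT and 1332, 1294, 1271 and 1406 in KO. The lowest KO array stood only slightly above WT replicate 3. It rose by 0.39 (SE 0.11, adjusted p = 0.016 from limma), or 1.31-fold with an interval of 1.10 to 1.56. The call on Gp9 was lost under 6 of 25 alternatives, among them when arrays were scaled to their 75th percentile (0.13, adjusted p = 0.37) and without WT replicate 4 (adjusted p = 0.051).

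Pf4 and Ppbp encode platelet factor 4 and pro-platelet basic protein, chemokines packed into the alpha granules, and are neighbours on chromosome 5. Pf4 read 11905, 10182, 12327 and 10294 in WT and 11881, 13885, 14542 and 14533 in KO. KO replicate 2 lay within the WT range and the other 3 KO arrays above it. The difference of 0.30 on the log2 scale (95% interval 0.032 to 0.56, SE 0.12, adjusted p = 0.059 from limma) did not pass. It passed without KO replicate 2 (0.36, adjusted p = 0.03).

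Ppbp read 10142, 10176, 10506 and 9799.8 in WT and 8947, 11971, 9536 and 11734 in KO. The WT arrays were nearly alike, while 2 KO arrays lay above all of them and 2 below. The difference was 0.043 with a 95% interval of -0.23 to 0.32 (adjusted p = 0.78 from limma), and this interval holds changes of either sign.

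The members were also set against one another within each array, as the log2 signal of 1 gene minus that of another, which any constant scaling of an array leaves as it is. The 8 genes, each by its brightest probe set, give 28 such pairs. In 23 of the 28 the KO and WT values differed (exact permutation test over 70 assignments of the arrays, two-sided, p = 0.029 for each of these, adjusted p = 0.035 by Benjamini-Hochberg over the 28). That p is the lowest this test can give, and the 28 pairs reuse the same 8 genes. The share of pairs that differ among all tested genes was not taken, so the count shows nothing particular to the members. Itga2b rose relative to Pf4 by 1.46 on the log2 scale, or 2.76-fold, and relative to Ppbp by 1.72, in 4 of 4 KO arrays. Vwf rose relative to Pf4 by 1.49 and relative to Ppbp by 1.74, again in 4 of 4. Gp1bb and Gp5 rose relative to Pf4 by 0.47 and 0.45. Quantile normalization, which is no constant scaling, changed the pairs. After it 22 of the 28 passed, of which 20 had passed with the same sign on the deposited scale, and 3 no longer passed. These were Gp1bb against Pf4 (0.020, exact permutation test, adjusted p = 0.65), Gp5 against Pf4 (-0.024, adjusted p = 0.80 by the same exact test) and Itgb3 against Pf4 (0.35, adjusted p = 0.07, exact). Itga2b against Pf4 was at 1.12 and Vwf against Pf4 at 0.98.

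The other 5 pairs did not pass on the deposited scale. Vwf and Itga2b differed in their change by 0.025 (exact permutation test, adjusted p = 0.80), and Gp1bb and Gp5 by 0.021 (adjusted p = 0.77 by the same exact test). Gp9 and Pf4 differed by 0.094 (exact permutation test, adjusted p = 0.34), Gp9 and Ppbp by 0.35 (adjusted p = 0.067, exact) and Pf4 and Ppbp by 0.25 (adjusted p = 0.096, exact). On the deposited scale the genes were thus ordered by their change as Vwf and Itga2b, then Itgb3, then Gp1bb and Gp5, then Gp9, Pf4 and Ppbp. Neighbours named together in this order did not differ beyond their spread, and a p that misses the threshold does not show that they changed alike. After quantile normalization Pf4 lay level with Gp1bb and Gp5, and above Gp9 (difference of Gp9 from Pf4 of -0.36, exact permutation test, adjusted p = 0.036).

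**Figure D2:**
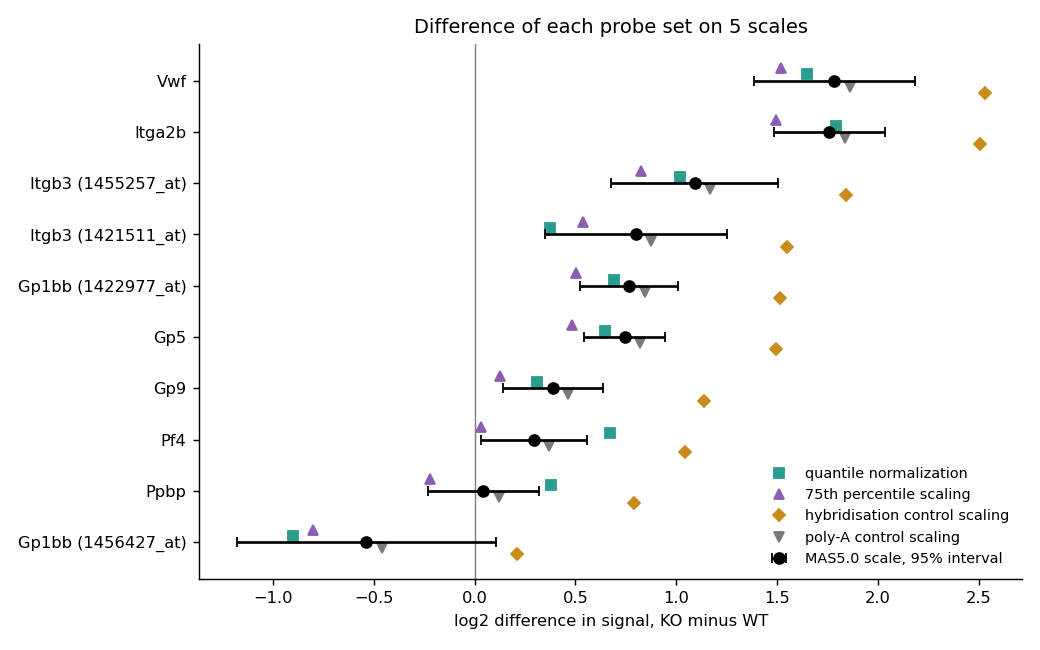
Log2 difference of each member probe set, KO minus WT, on the MAS5.0 scale (black circle with its 95% interval) and under 4 other scalings of the arrays (coloured markers, without intervals). The markers shift sideways with the scaling while Vwf and Itga2b lie above 1 on every scale and Ppbp runs from -0.22 to 0.79.

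The differences depended on the scale of the arrays. Scaling by a constant shifts all of them together, whereas quantile normalization raised the differences of Pf4 and Ppbp and lowered those of most other members. The median difference over all tested probe sets was 0.17 as deposited, -0.0075 after quantile normalization, -0.095 when scaled to the 75th percentile, 0.92 when scaled to the hybridisation controls and 0.24 when scaled to the poly-A controls. Under quantile normalization 8 member probe sets were called higher against 24.0% of all tested, and Pf4 (0.67, adjusted p = 0.0021 from limma) and Ppbp (0.38, adjusted p = 0.043 from limma) were among them. With the 75th percentile 6 were called higher against 22.4% of all, and with the hybridisation controls 9 against 77.6%. Itga2b, Vwf, Gp5, the brighter Itgb3 probe set and the bright Gp1bb probe set were called higher under each of the 25 alternatives run. Over the alternatives the difference reached 2.51 for Itga2b and 2.53 for Vwf with the hybridisation controls.

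**Figure D3:**
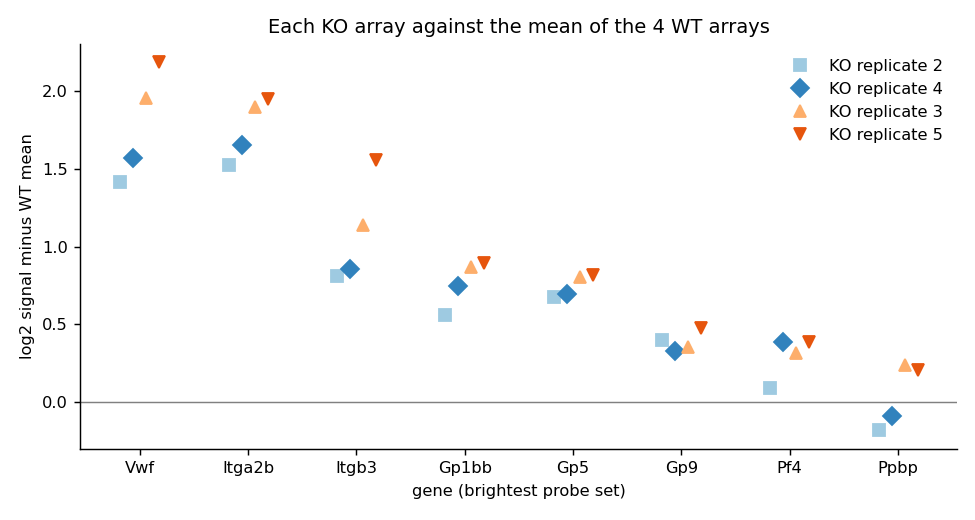
Log2 signal of each KO array minus the mean of the 4 WT arrays, for the brightest probe set of each member gene, with 1 marker per KO replicate and 0 meaning no difference from WT. KO replicates 3 and 5 (orange) lie above 2 and 4 (blue) in all genes but Gp9 and Pf4, and for Ppbp the pairs fall on opposite sides of 0.

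The KO arrays were not alike in these genes. KO replicates 3 and 5 both exceeded 2 and 4 in 6 of the 8 genes, all but Gp9 and Pf4. Over the 11292 genes tested, this order held for 27.6% and the opposite order for 31.7%. For Vwf the KO arrays stood 1.42 (replicate 2), 1.57 (replicate 4), 1.96 (replicate 3) and 2.19 (replicate 5) above the WT mean on the log2 scale. For Ppbp the pairs lay on opposite sides of the WT mean, at -0.18 and -0.090 in replicates 2 and 4 and at 0.24 and 0.21 in replicates 3 and 5. Over all tested probe sets the arrays paired in the same way, with Pearson correlations across probe sets of 0.978 for KO 2 with 4 and 0.977 for KO 3 with 5, and 0.956 to 0.962 for the other KO pairs. With KO replicates 2 and 4 alone against WT, 5 member probe sets were called higher, and with 3 and 5 alone 8 were. The share of all tested probe sets called on either split was not taken, so these counts show no difference particular to the members. What sets the arrays apart was not tested.

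The same comparison was made for 4 further lists of megakaryocyte genes, with each gene represented by its brightest probe set. Over the 11292 genes tested in this way 25.6% were called higher and 21.0% lower, and the median difference was 0.060. The members had a median of 0.76. Among the transcription factors and signaling genes of the lineage 16 were tested, 5 were called higher and 4 lower, with a median of 0.30. Runx1, the factor mutated in a familial platelet disorder, went from 197 ± 44.8 to 492 ± 65.1 (mean signal ± SD, n = 4 each), a rise of 1.34 on the log2 scale (limma, adjusted p = 0.00048). The ETS factors Etv6 and Fli1 rose by 1.13 and 0.95 (adjusted p = 0.00018 and 0.0051). The named genes that fell are also known for roles in the red cell lineage, and the part of red cells in their differences was not tested. Tal1, an early blood factor, fell by 1.31 (adjusted p = 0.00048), Nfe2, the regulator of platelet release, by 0.86 (adjusted p = 0.0027), and Mafk, a dimer partner of the Nfe2 product, by 0.69 (adjusted p = 0.0024, limma). With hybridisation control scaling the Mafk difference was 0.059, and Nfe2 was not called.

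Of 17 other platelet surface receptors tested, 9 were called higher and 0 lower, with a median of 0.46. P2ry12, among the 9, passed the minimum only through KO (mean signal 89.7 in WT and 128 in KO), and its groups overlapped. The groups also overlapped for P2ry1, another of the 9 (mean signal 117 in WT and 212 in KO, adjusted p = 0.037 from limma). The count higher was 6 without the filter and 6 to 9 when single arrays were left out, settings for which no share of all genes was taken. F2rl2, a thrombin receptor of mouse platelets, rose by 1.23 (adjusted p = 6.5e-05), Treml1, held in alpha granules until activation, by 1.08 (adjusted p = 0.00028) and Itga6, a laminin receptor chain, by 1.02 (adjusted p = 0.0022, all limma). The count of 9 was 5 with the 75th percentile, where 13% of all genes were called higher. With the hybridisation controls it was 17, where 75.2% of all genes were called higher.

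Among 24 tested genes of granule cargo and granule formation, 9 were called higher and 1 lower, with a median of 0.31. Thbs1, encoding thrombospondin of the alpha granule, went from 1154 ± 69.1 to 4317 ± 194 (mean signal ± SD, n = 4 each), which is 3.74-fold and a rise of 1.90 on the log2 scale (limma, adjusted p = 3.6e-06). F13a1, the clotting factor XIII subunit, rose by 1.34 and Slc35d3, needed for dense granules, by 1.27 (adjusted p = 0.005 and 0.00098 from limma). Vamp8, a vesicle fusion protein of granule release, fell by 0.74 (adjusted p = 0.00024 from limma), and was at 0.012 with hybridisation control scaling.

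Of 22 genes of the platelet cytoskeleton and activation pathway 14 were called higher and 0 lower, with a median of 0.64. Plek, encoding pleckstrin, a substrate of protein kinase C, rose by 1.28, from 2157 ± 48.7 to 5302 ± 1019 (mean signal ± SD, n = 4 each, adjusted p = 0.00016 from limma). Zyx, an actin-binding focal adhesion protein, rose by 1.17 and Lcp2, the adaptor downstream of the collagen receptor, by 1.03 (adjusted p = 0.00031 and 0.0024 from limma). With the hybridisation controls, where 75.2% of all genes were called higher and 2.81% lower, the counts higher were 12 of 16 for the transcription factors and signaling genes, 22 of 24 for the granule genes and 22 of 22 for the cytoskeleton and activation genes. Thrombospondin, factor XIII and several of these signaling genes are also made by other blood or stromal cells, which was not resolved here.

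**Figure D4:**
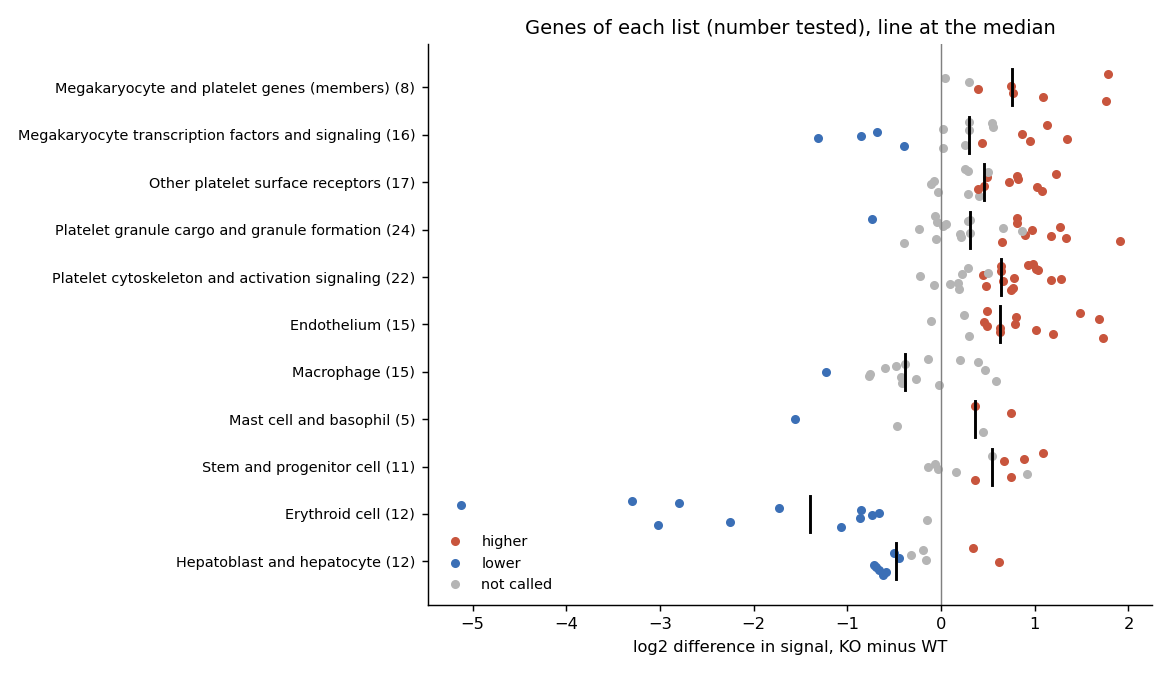
Log2 difference, KO minus WT, of each tested gene by list (1 point per gene at its brightest probe set, red called higher, blue called lower, grey not called), with the number of tested genes in brackets and a black line at the median. The member genes lie between 0.043 and 1.78, the 4 other megakaryocyte lists have medians of 0.30 to 0.64, and the erythroid list has a median of -1.40.

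Markers of other cells of the fetal liver moved at the same time. Of 12 erythroid genes 11 were called lower, with a median of -1.40, and their summed signal ranged over 134400 to 144056 among WT arrays and 51054 to 54170 among KO arrays. Of 12 hepatoblast and hepatocyte genes 7 were called lower and 2 higher. Apoa2 and Apoa1 fell by 0.71 and 0.70 (0.036 and 0.049 with hybridisation control scaling), and Apob and Dlk1 rose by 0.62 and 0.34, of which neither was called with the 75th percentile. Of 11 stem and progenitor genes 5 were called higher and 0 lower, with a median of 0.54. Slamf1, which encodes CD150, and Mycn, a growth regulator, rose by 1.09 and 0.89.

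Of 15 macrophage genes 0 were called higher and 1 lower, Timd4 (fell by 1.23), and of 10 mast cell and basophil genes only 5 reached the minimum for testing. Among those, Mcpt8 fell by 1.56, and Hdc and Kit rose by 0.75 and 0.37, neither of which was called after quantile normalization. The groups overlapped for Hdc, and Kit is also counted among the stem and progenitor genes called higher. The macrophage count lower was 9 without KO replicate 5 and 8 with the 75th percentile, where 36.8% of all genes were called lower. With the hybridisation controls 7 of the 15 macrophage genes were called higher, where 75.2% of all genes were. Of the other cell type counts, stem and progenitor genes called higher were 3 after quantile normalization (16.6% of all genes). Hepatocyte genes called lower were 1 after quantile normalization (25.8% of all genes) and 0 with the hybridisation controls (2.81% of all genes). Erythroid genes called lower were 7 with the hybridisation controls (2.81% of all genes). The part of these other cell types in the members' differences was not tested. The median difference of the endothelial list was 0.47 and 0.59 in KO replicates 2 and 4 and 1.00 and 0.70 in replicates 3 and 5, and that of the macrophage list was -0.82 and -0.44 in the former and -0.31 and 0.29 in the latter, beside the members' own 0.62 and 0.72 and then 0.83 and 0.85.

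The genes closest to Itga2b across the 8 arrays were found by the root mean square distance of their log2 signal, each less its WT mean, over 10922 genes. They were Dmxl2 (distance 0.12), Vwf (0.13), Fstl1 (0.13), Trappc6a (0.14) and Pecam1 (0.16). Vwf, itself a member, was thus the second nearest to Itga2b of all the genes compared. The 5 nearest to Pf4 were Luc7l, Map2k4, Inppl1, Gatd1 and Prkci, at distances of 0.067 to 0.083, and all 5 had small differences of 0.27 to 0.36. Such a distance takes in the KO minus WT difference, so near genes have similar differences by construction. The distances describe these 8 arrays and carry no test.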

How the data were processed

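Total RNA of E14.5 fetal livers was hybridised by the authors to Affymetrix mouse genome arrays, 1 per embryo. The deposited values are MAS5.0 intensities on a linear scale, with 45101 probe sets as on the full array, whereas the methods name its A version. MAS5 and R 3.0.2 are listed in the submitters' processing notes. The number of arrays limits the precision.

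Here log2 of the intensities was taken, without a pseudocount. The 23379 probe sets whose mean log2 intensity exceeded log2 of 100 in either genotype (controls left out) were fitted with limma 3.58.1 in R 4.3.3 (lmFit and eBayes, 4 WT against 4 KO, no covariate, two-sided) and adjusted by Benjamini-Hochberg, with adjusted p under 0.05 counted as called. Differences between pairs of members and array measures were tested by exact permutation in Python 3.11.15 (scipy 1.17.1, numpy 2.4.6, pandas 2.3.3). Gene symbols came from the platform annotation, which can be old. A simulation of 23379 probe sets held 100 with a true log2 change of 1 and 100 with a change of 2. The fit found 66 of the former and 95 of the latter, and it made 14 false calls. In the real comparison a far larger share was called, 34.4% higher and 17.7% lower. The Benjamini-Hochberg cut-off depends on that share, so the simulated counts do not give the sensitivity or the false calls of the real comparison.

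The members and the gene lists were chosen with earlier results of these data known. All member probe sets are named, and for each other megakaryocyte list up to 3 called genes that rose most and 3 that fell most (2 and 2 for cell type lists), plus the 5 genes nearest to Itga2b and to Pf4. As alternatives, arrays were quantile normalized or scaled to the 75th percentile, the hybridisation controls or the poly-A controls, a pseudocount of 16 or 64 was added, the filter was dropped, based on the mean of all arrays or set at 200, limma's trend and robust options, the methods' t-test with or without equal variances and a replicate number block were used, and each array was left out in turn. Poly-A scaling with Trpn left out, KO replicates 2 and 4 or 3 and 5 alone, and the pairs of members after quantile normalization, were added after seeing the data.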

Additional observations from a re-analysis of the deposited data

Results flagged for a closer look

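Among 20 groups of 4 arrays, 1 held an array far from the others by Dixon's rule, about the 1 in 20 that chance gives. It was KO replicate 5 of the dim Gp1bb probe set (1456427_at), at a signal of 66.4 against 102 to 103 in the other 3 KO arrays, a gap of 0.98 of the group's whole range. All 4 of these signals lie close to or below 103, near the minimum for testing.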

How the results depend on the processing

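The count of member probe sets called higher, 7 on the deposited scale, was 5 to 9 over all alternatives and 6 to 8 when single arrays were left out. The 9 came with the hybridisation controls, where 77.6% of all tested probe sets were called higher, against 34.4% on the deposited scale. When single arrays were left out that share was not taken, so those counts show nothing particular to the members. The count lower, 0, became 1 with quantile normalization and 1 with the 75th percentile, and was 0 to 1 when single arrays were left out, each time the dim Gp1bb probe set. Its difference (-0.54) was 0.21 with hybridisation control scaling. Ppbp (0.043) became -0.22 with the 75th percentile, -0.043 with poly-A scaling without Trpn, -0.021 without KO replicate 3 and -0.012 without KO replicate 5 (range -0.021 to 0.119 when single arrays were left out), and -0.14 with KO replicates 2 and 4 alone. The causes were not tested.

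Calls on Gp9 and on the dim Itgb3 probe set were lost and those on Pf4 and Ppbp gained under some settings. Pf4 was called under 7 alternatives, Ppbp under 2, Gp9 under 19 of 25 and the dim Itgb3 probe set under 21 of 25.

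Replicate numbers 2, 3 and 4 occur in both groups, but same-numbered arrays did not deviate together (correlations -0.00084, -0.082 and -0.027), so the numbers were not taken as pairs. With the replicate number as a block, which leaves 2 residual degrees of freedom, 5 member probe sets were called higher and Ppbp was at -0.012. The share of all tested probe sets called with this block was not taken.

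With 4 arrays a group and signals near 100, the dim probe sets are measured least well, and the signals give no number of molecules. The array scale and the label code differ with genotype, and of the 3′ minus 5′ measures those of Actb and Tfrc differed in opposite directions and that of Gapdh by -0.034. The count of pairs of members whose change differed was 23 on the deposited scale and 22 after quantile normalization, and the share among pairs of all genes was taken on neither.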
